A study of Caenorhabditis elegans with 4 samples.

Results

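The regions described here are the broad domains of COH-3 enrichment in adult Caenorhabditis elegans. Cohesin is a ring of proteins around chromatin, and COH-3 belongs to the kleisins, which join the heads of its SMC arms. Together with the closely related COH-4, and beside the kleisin REC-8, it serves meiotic chromosomes in the worm germline, where cohesin ties sister chromatids and forms part of the chromosome axis. Its position was mapped by chromatin immunoprecipitation and sequencing (ChIP-seq). Domains were chosen by their measured width alone, as peaks of 1500 bp or more in the authors' peak list for the whole series. On the 6 nuclear chromosomes 324 of 9642 peaks met this width (3.36%), and the other 9318 are called the narrower peaks.

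The data came from 2 ChIP libraries precipitated with an affinity-purified rabbit antibody to COH-3, each with its own peak list, and 2 libraries of input DNA, not analysed here. Both groups were hermaphrodites of the strain fem-2(b245), genotype fem-2(b245)III, kept at 20 degrees Celsius. The mutated gene promotes male fate in sex determination, and the mutation was present in every library, so that no group carries the wild-type gene. The labels give the stage as young adults that contain a germline, while the growth protocol speaks of gravid adults, and worms were frozen and ground before fixation with EGS and formaldehyde. Nothing states whether the 2 replicates came from separate cultures, so differences between them may be technical. Read depth is unknown, and positions are on WormBase WS220, for which no gene annotation was used here.

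Width chose the domains, and width and score come from the same list, so both are given as descriptions. The domains were 1500 to 11772 bp wide with a median of 2208.5 bp, against 146 to 1499 bp with a median of 288 bp for the narrower peaks. Of the 324 domains, 134 were under 2000 bp, 106 from 2000 to under 3000 bp, 55 from 3000 to under 5000 bp and 29 wider. Together they covered 892 kb, which was 20.3% of all bases in whole-series peaks and 0.890% of the chromosomes. Their scores ran from 5.50 to 181.93 with a median of 33.995, against a median of 6.06 for the narrower peaks. The upper 10% of the list by score held 228 of the 324 domains (70.4%) and 736 of the 9318 narrower peaks (7.90%).

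The very highest scores of the list nevertheless belonged to narrower peaks. None of the 7 highest-scoring peaks was a broad domain, a number too small to compare with the 3.36% of all peaks that were broad. Of the highest 25 peaks 6 were broad (24%), and of the highest 100 peaks 37 (37%), both above that share. Among the domains, width and score had a Spearman rho of 0.32 (n = 324), and among the narrower peaks 0.62 (n = 9318). Both numbers describe peaks of a single list whose caller sets width and score from the same reads. At the threshold the values ran on without a step. The 3 narrowest domains were 1500, 1500 and 1503 bp wide with scores of 54.03, 21.20 and 9.54, and the 3 widest peaks below it were 1499, 1495 and 1493 bp wide with scores of 7.22, 34.51 and 71.04.

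**Figure D1:**
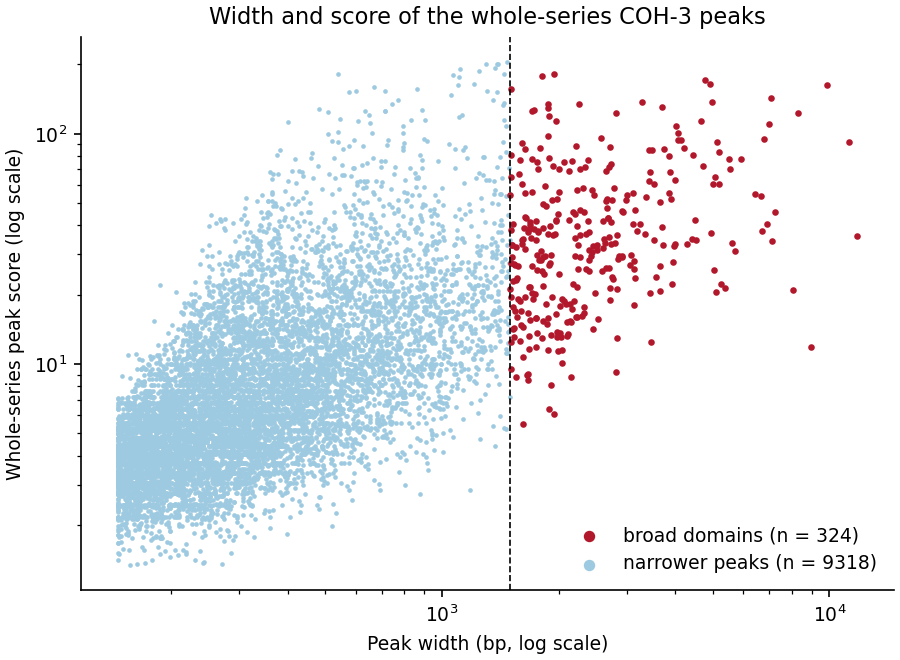
Each point is a whole-series peak, with its width in bp on the horizontal log axis and its score on the vertical log axis; red points are the 324 broad domains, blue points the 9318 narrower peaks, and the dashed line marks 1500 bp. The domains score from 5.50 to 181.93, with 228 of the 324 in the upper 10% of the list by score and 2 in the lower 50%. The highest scores, up to 205.15, belong to narrower peaks.

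The widest domain lay on chromosome III at 321612 to 333383 and was 11772 bp wide, with a score of 35.86. Its bases were covered to 99.97% by 2 replicate 2 peaks, and no replicate 1 peak overlapped it. The next, 11211 bp wide with a score of 92.04, was at I 15060190 to 15071400, near the right end of I, the side of the chromosome known for its ribosomal DNA array. Replicate 2 covered 98.7% of it with a single peak at a score of 3100, and replicate 1 none. The widest on X, at 16929254 to 16939136, was 9883 bp wide and scored 163.28. Both replicates covered it, replicate 1 to 99.6% with 2 peaks and replicate 2 to 91.3% with 8, so that the same stretch was a nearly continuous block in one list and a row of pieces in the other.

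Of the 15 widest domains, 8 were covered by replicate 2 and met no replicate 1 peak. Beside the first 2 named these were I 4348539 to 4357490 (8952 bp), III 13584139 to 13592181 (8043 bp), I 10212152 to 10219276 (7125 bp), V 10605584 to 10612465 (6882 bp), V 3434544 to 3441242 (6699 bp) and IV 8575089 to 8581730 (6642 bp, the widest on IV). The domain at II 10541762 to 10548198, the widest on II at 6437 bp, showed the opposite pattern, with 97.7% of its bases in a replicate 1 peak at a score of 3100 and no replicate 2 peak. At I 7865980 to 7873043 (7064 bp) replicate 1 covered 99.2% and replicate 2 39.6%, although each had a peak there at a score percentile of 99.9 in its list. The widest on V, at 7916789 to 7925068, was 8280 bp wide and was a single peak in each list, covering 98.99% in replicate 1 and 99.7% in replicate 2. Coverage over 50% in both lists was also found at III 10807114 to 10814339 (7226 bp), V 9338350 to 9345335 (6986 bp) and V 17119876 to 17126650 (6775 bp).

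The 10 highest-scoring domains were 1508 to 9883 bp wide, and each overlapped a peak of both replicates. The first, IV 11399770 to 11401716, was 1947 bp wide with a score of 181.93, and its replicate peaks stood at a percentile of 100 by score in the replicate 1 list and of 99.9 in the replicate 2 list. The next, V 9545904 to 9547712, scored 178.35 and rested on replicate 1, which covered all its bases, while replicate 2 covered 17.7% with a peak at a percentile of 32.9 in its list. IV 11336957 to 11341722 (170.60) and IV 11322957 to 11327884 (164.70) followed, with peaks at the tied score of 3100, a percentile of 99.9, in both lists. At II 9631669 to 9633176 (156.33) the replicate 1 peak, at a percentile of 13.2 in its list, lay over 45.0% of the domain, and the replicate 2 peak, at a percentile of 99.9 in its own, over 97.3%. A pair on II, at 13824640 to 13827924 (137.96) and 13819065 to 13824028 (137.45), had 2 and 3 peaks of each replicate inside it. The last of the 10 was X 1503283 to 1505164 (135.0), and the remaining 2 have been described among the widest.

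The question put to the replicate lists was how far each broad domain was found in both libraries. The whole-series list comes from the same libraries, so the shares are descriptions without a test, and a wide region also meets more peaks by its length alone. With an overlap of at least 1 bp, 160 of the 324 domains met a peak of both replicates (49.4%, exact 95% interval 43.8 to 55.0), against 859 of the 9318 narrower peaks (9.22%, 8.64 to 9.82) and 10.6% of all whole-series peaks. Replicate 1 alone supported 69 domains (21.3%, against 23.9% of the narrower peaks and 23.8% of all peaks), and replicate 2 alone supported 95 (29.3%, against 24.6% and 24.8%). No domain was without a peak of either list, 0 of 324, which allows a share of up to 0.926% by the limit of 3 counts and 1.13% by the exact 95% interval. Among the narrower peaks 42.3% had none, and among all peaks 40.9%.

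Measured by covered bases, most domains reached 50% in 1 replicate only. Domains with 50% or more of their bases in peaks of both replicates numbered 66 (20.4%, 16.1 to 25.2), against 5.96% of the narrower peaks and 6.44% of all peaks. Another 135 domains reached 50% in replicate 1 only (41.7%, 36.2 to 47.2; 25.8% of all peaks) and 120 in replicate 2 only (37.0%, 31.8 to 42.5; 23.7% of all peaks). The remaining 3 reached it in neither (0.926%, against 44.1% of all peaks): III 4215068 to 4216880, IV 13511715 to 13513300 and IV 17088356 to 17090261. These 3 lay outside the rule for naming and were singled out after their values had been seen. In the replicate 1 class the median coverage was 98.8% by replicate 1 and 0% by replicate 2, and in the replicate 2 class it was 0% by replicate 1 and 99.1% by replicate 2. Coverage by the replicates had a Spearman rho of -0.80 over the 324 domains, which share their libraries. The domains were called from these same libraries, and how far the calling sets this value was not tested. Of the 892 kb in domains, 21.2% lay in peaks of both lists, 34.8% in replicate 1 peaks only, 39.2% in replicate 2 peaks only and 4.74% in neither.

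**Figure D2:**
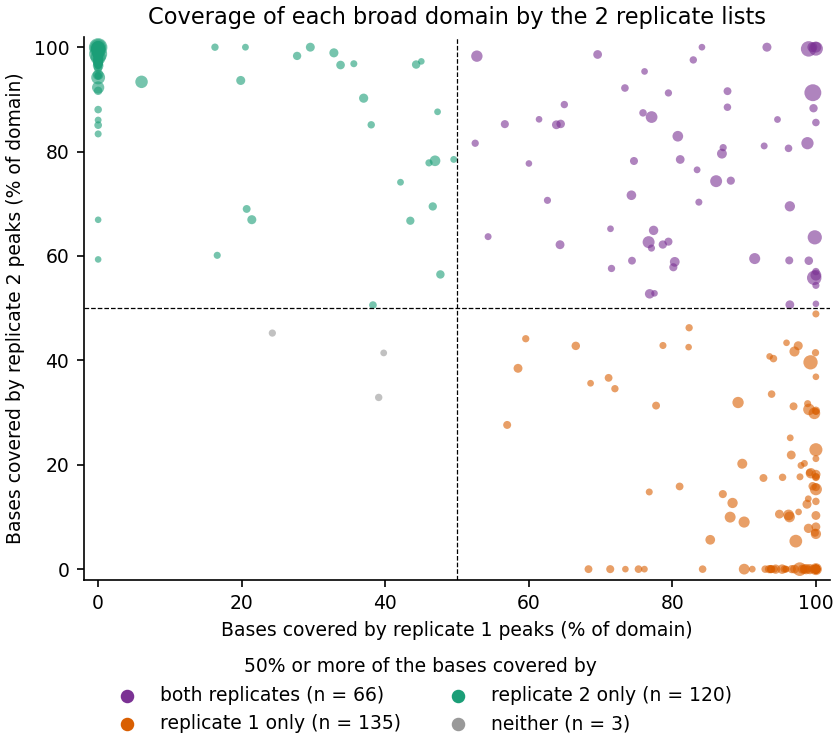
Each point is a broad domain, placed by the share of its bases in replicate 1 peaks (horizontal, %) and in replicate 2 peaks (vertical, %), with the area of the point in proportion to its width and dashed lines at 50%. Most points lie along the right and upper edges, with 135 domains covered mainly by replicate 1, 120 mainly by replicate 2 and 66 by both.

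Domains covered by both replicates had a median width of 2282 bp and a median score of 50.71, those of replicate 1 a median of 2105 bp and 29.6, and those of replicate 2 a median of 2389.5 bp and 34.52. The widest domains leaned to replicate 2: of the 29 domains of 5000 bp or more, 18 were in its class (62.1%, 42.3 to 79.3), 5 in the replicate 1 class and 6 in both. Of the 134 domains under 2000 bp, 43 were in the replicate 2 class (32.1%, 24.3 to 40.7), 62 in the replicate 1 class and 26 in both. In the replicate 1 class 66 of 135 domains also met a replicate 2 peak, and over these 66 the replicate 1 peaks had a median score percentile of 96.0 and the replicate 2 peaks of 60.5, each within its list. In the replicate 2 class 25 of 120 domains also met a replicate 1 peak, and over these 25 the replicate 2 peaks had a median percentile of 95.3 and the replicate 1 peaks of 52.8. Coverage by peaks of the same lists had set the classes, so these percentiles are descriptions and not separate support.

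The same shares were then read within classes of score. In the upper 10% of the list by score, 124 of 228 domains met both replicates by 1 bp (54.4%, 47.7 to 61.0), against 452 of 736 narrower peaks (61.4%, 57.8 to 64.9). With 50% of the bases required, the shares were 25.9% (20.3 to 32.1) and 45.4% (41.7 to 49.1). Reaching 50% takes a longer covered stretch in a domain than in a narrower peak, so this measure depends on width even at like scores. In the score class from 75 to 90% the same shares were 7.79% of 77 domains (2.91 to 16.2) and 13.5% of 1369 narrower peaks (11.7 to 15.4). Overlap of 1 bp ran the other way in that class, at 44.2% of the domains (32.8 to 55.9) and 22.9% of the narrower peaks (20.7 to 25.2). Below it there were 17 domains from 50 to 75% and 2 in the lower 50%, too few to compare.

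**Figure D3:**
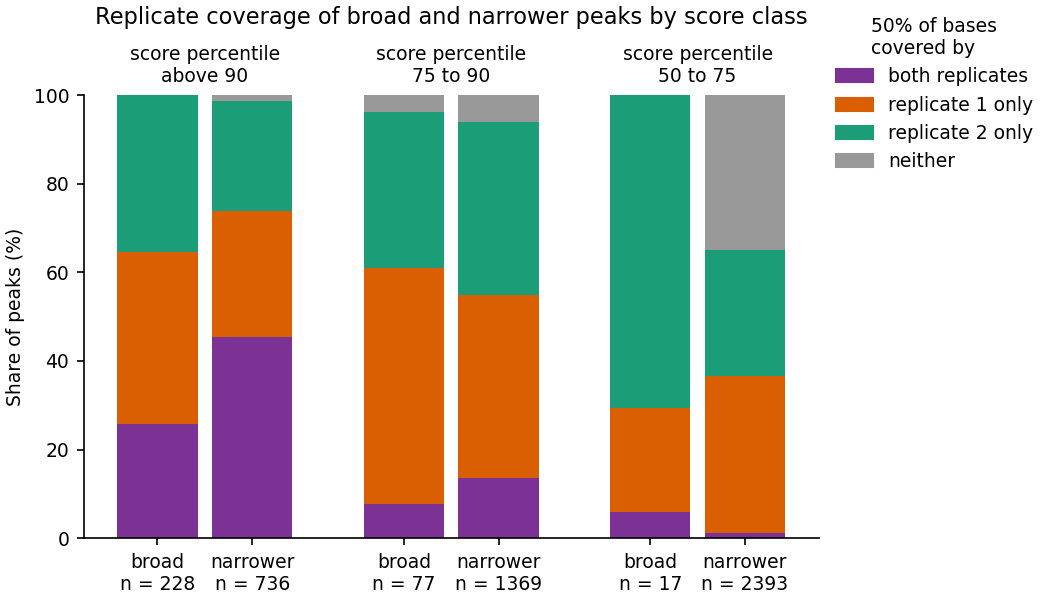
Bars give the share (%) of broad domains and of narrower peaks with 50% or more of their bases in peaks of both replicates, of replicate 1 only, of replicate 2 only or of neither, within 3 classes of whole-series score percentile. Above the percentile of 90 the share covered by both was 25.9% for the domains and 45.4% for the narrower peaks, by a measure that depends on peak width.

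A domain was seldom a wide peak in both lists, though width in a list from the same libraries had chosen the domains. A replicate peak that itself reached 1500 bp overlapped 255 of the 324 domains (78.7%, 73.8 to 83.0). For 130 domains it was in replicate 1 alone (40.1%), for 106 in replicate 2 alone (32.7%) and for 19 in both (5.86%, 3.57 to 9.01). Of the 160 domains that met both lists, these 19 were 11.9% (7.30 to 17.9). The other 69 domains met only shorter replicate peaks. Replicate 1 broke into 2 or more peaks inside 58 domains, with at most 5, and replicate 2 inside 91 domains, with at most 8. Neither these counts nor the shares above were made for the narrower peaks or for all peaks, so they are descriptions.

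Seen from the replicates, each list had wide peaks that the other lacked. Replicate 1 had 210 peaks of 1500 bp or more (6.51% of its 3224 peaks, widest 8196 bp), and replicate 2 had 164 (3.91% of 4192, widest 12276 bp). A wide peak of the other list overlapped 21 of the 210 (10.0%, 6.30 to 14.9) and 21 of the 164 (12.8%, 8.10 to 18.9). Of the 210, 155 overlapped a broad domain (73.8%), as did 131 of the 164 (79.9%), and every one of these 374 peaks met some whole-series peak. The 55 replicate 1 and 33 replicate 2 peaks that met no broad domain fell mostly on several narrower peaks, 2 or more of them in 39 and 28 cases. Conversely 4 replicate 2 peaks and no replicate 1 peak spanned 2 or more separate broad domains of the whole-series list.

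Broad domains lay on all 6 chromosomes. They numbered 4.72 per Mb on III, 4.58 on I, 3.34 on II, 3.32 on IV, 2.72 on V and 1.35 on X. As a share of the peaks of each chromosome they were 3.68% on V (2.80 to 4.74), 3.65% on I (2.85 to 4.59), 3.42% on IV, 3.40% on III, 3.21% on II and 2.38% on X (1.53 to 3.52). All these intervals overlap. X carried 24 of the 324 domains (7.41%, 4.80 to 10.8) and 984 of the narrower peaks (10.6%, 9.94 to 11.2), and with a single X chromosome this was not tested. In the replicate 2 list taken alone X held 12.8% of the peaks of 1500 bp or more and 8.39% of its narrower ones, and in the replicate 1 list 9.05% and 14.2%. Of the 24 X domains 3 met both replicates (12.5%, 2.66 to 32.4), against 157 of the 300 autosomal ones (52.3%, 46.5 to 58.1). The narrower peaks were also lower on X, where 51 of 984 met both (5.18%, 3.88 to 6.76), against 808 of 8334 on the autosomes (9.70%, 9.07 to 10.4). Over all peaks the shares were 5.36% on X and 11.2% on the autosomes, and whether the X to autosome gap differs between domains and narrower peaks was not tested. Replicate 2 alone supported 13 of the 24 X domains (54.2%, 32.8 to 74.4) and replicate 1 alone 8 (33.3%, 15.6 to 55.3), with overlapping intervals. Among the 984 narrower X peaks 188 had replicate 2 alone (19.1%) and 399 replicate 1 alone (40.5%). Over all X peaks these shares were 19.9% and 40.4%. Whether the domains differ from the narrower X peaks in this was not tested.

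The chromosome centres of C. elegans are gene-dense and have few crossovers, while the arms are rich in repeats, so the middle 33.3% of each chromosome was compared with the outer parts. Of the centre peaks 2.91% ± 0.72 were broad and of the outer peaks 3.57% ± 0.64 (SD, n = 6 chromosomes), a difference of -0.66 percentage points. It ranged from -2.28 on I to 0.14 on V and did not pass the exact two-sided sign-flip permutation test over chromosomes (p = 0.125, adjusted p = 0.156 over 5 tests; the smallest possible p is 0.031). In the replicate lists taken alone the difference was above 0, at 0.73 points in replicate 1 and 1.03 in replicate 2 (exact p = 0.219 in each), so no direction can be given. Median width was 2220.5 bp for the 126 domains in the centre and 2195.5 bp for the 198 in the outer parts.

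Position was also set against the replicate that covered the domain. Of the domains covered mainly by replicate 1, 55.1% ± 10.5 lay in the centre, and of those covered mainly by replicate 2, 24.0% ± 7.72 (SD, n = 6 chromosomes). The share was higher for replicate 1 on 6 of 6 chromosomes, from 14.4 points on X to 57.3 points on I, where 12 of 18 replicate 1 domains and 3 of 32 replicate 2 domains were central. This gave the smallest p the design allows (exact sign-flip permutation p = 0.031), which did not hold after adjustment over the 5 tests (adjusted p = 0.0781). A p at this smallest value could pass the adjustment only if nearly all 5 tests reached it, so the adjusted p cannot decide here. The classes and this comparison were chosen after the values had been seen, and the narrower peaks differed in the same direction, by 22.4 ± 6.68 points against 31.1 ± 15.2 for the domains. That excess was not past the test (8.71 points, higher on 5 of 6 chromosomes, exact p = 0.0938, adjusted p = 0.156). Domains covered by both replicates lay in the centre in 22 of 66 cases (33.3%, 22.2 to 46.0).

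**Figure D4:**
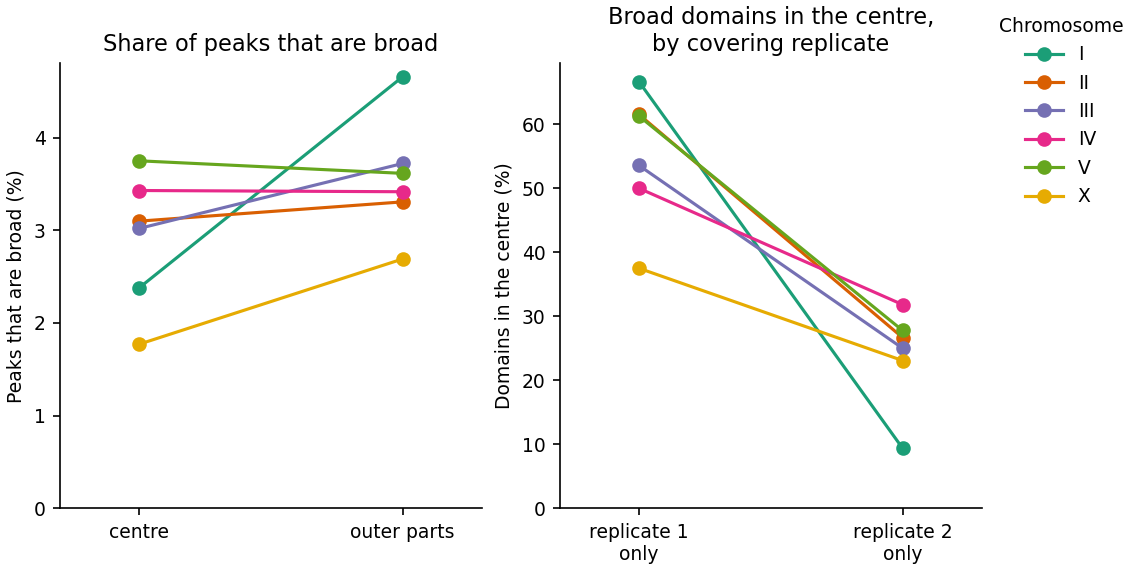
Lines join the values of each of the 6 chromosomes. On the left is the share of whole-series peaks that are broad (%) in the centre and in the outer parts, and on the right the share of broad domains that lie in the centre (%) for domains covered mainly by replicate 1 or by replicate 2. On the left the lines run in both directions, with the centre higher on 2 of 6 chromosomes, and on the right replicate 1 is higher on 6 of 6.

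Along the chromosomes, divided from the left end into 10 bins of equal length, the share of peaks that were broad stayed between 2.17% in the second bin (1.16 to 3.68) and 3.99% in the eighth bin (2.88 to 5.37). The number of domains was highest in the fifth bin, at 44, which was 3.45% of its peaks. Of these 44 domains 34 were in the replicate 1 class and 6 in the replicate 2 class. In the first bin 6 of 26 domains were in the replicate 1 class and 16 in the replicate 2 class, and in the ninth bin 4 and 16 of 26. The classes were closer in the fourth bin, at 12 and 12 of 37, and in the tenth, at 7 and 10 of 26. Classes of the narrower peaks were not counted by bin.

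**Figure D5:**
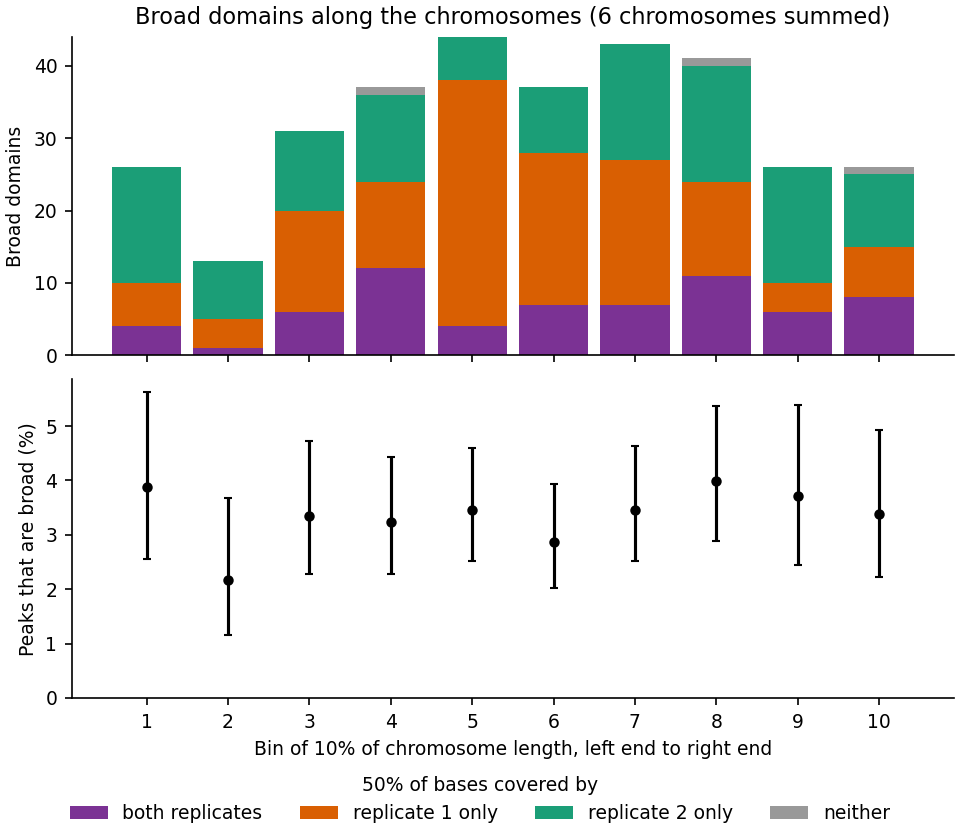
Upper bars count the broad domains in each of 10 bins of chromosome length, summed over 6 chromosomes and coloured by the replicate whose peaks cover 50% or more of the bases. Points below give the share of peaks that are broad (%) with exact 95% intervals, which overlap among all bins, while the replicate 1 class has its highest count in the fifth bin with 34 domains.

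The spacing of the domains was then measured. The median gap from one domain to the next on its chromosome was 161 kb, with a range from 0.051 to 2415 kb over 318 gaps, and 92 of 103 bins of 1 Mb held at least 1. The peak that followed a domain along the chromosome was itself broad in 16 of 324 cases (4.94%, 2.85 to 7.90), against 308 of 9312 for the narrower peaks (3.31%, 2.95 to 3.69). Over chromosomes the difference was 1.06 ± 3.10 points (SD, n = 6), from -2.44 on X to 6.74 on I, and did not pass (exact sign-flip permutation p = 0.594, adjusted p = 0.594). Chromosome I decided its sign, since without I it was -0.077 points (exact p = 0.875). In the replicate lists taken alone, with their own peaks of 1500 bp or more, the difference was larger, at 8.12 points in replicate 1 (exact p = 0.031) and 7.41 in replicate 2 (exact p = 0.0625), both p-values without adjustment.

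Some domains lay close together. With gaps of up to 20 kb, 85 domains (26.2%) formed 38 runs, 30 of 2 domains, 7 of 3 and 1 of 4. No such count was made for an equal number of narrower peaks. Whether the runs exceed what the spacing of all peaks gives was not tested, so they are a description. The run of 4, at I 10183810 to 10219276, spanned 35.5 kb. Its first domain was covered by both replicates, and the next 3, from 10204054 on and separated by 186 and 51 bp, by replicate 2 alone, to 96.8%, 99.6% and 99.8%. The megabase that holds it, from 10 to 11 Mb on I, had the most domains of all bins, 15. A run of 3 at I 10945885 to 10953070 and one at I 13610176 to 13615676 were likewise covered by replicate 2 peaks with none of replicate 1, as was III 7416289 to 7448117. At I 4340852 to 4357490 a replicate 2 peak of 12276 bp with a score of 627.28 reached over 2 of the 3 domains. The runs at I 7055601 to 7087096, III 3843986 to 3871563 and V 9326663 to 9345335 had replicate 1 peaks over 88.1% to 100% of each domain, and replicate 2 peaks over 0% to 81.1%. In the III run the first domain was covered by both, to 92.8% by replicate 1 and 81.1% by replicate 2, and in the V run the last domain was, to 99.8% and 63.6%.

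The surroundings of the domains were compared with those of the narrower peaks. Another whole-series peak lay within 500 bp of 189 of the 324 domains (58.3%, 52.8 to 63.8), against 3889 of the 9318 narrower peaks (41.7%, 40.7 to 42.7) and 42.3% of all peaks. The median gap to the nearest peak was 308.5 bp for the domains and 797.5 bp for the narrower peaks. Over chromosomes the share was 56.8% ± 9.93 for domains and 40.6% ± 7.01 for narrower peaks (SD, n = 6), and it was higher for domains on 6 of 6, by 8.32 points on V to 29.4 points on I. The exact sign-flip permutation test, added after the values had been seen, gave p = 0.031, which did not hold after adjustment over the 5 tests (adjusted p = 0.0781). Here too p was the smallest possible, so the adjusted p cannot decide. Width and gap are both set by the same peak starts and ends, so this test is not independent of the rule that chose the domains. In the upper 10% of the list by score the shares were 54.8% of domains (48.1 to 61.4) and 40.1% of narrower peaks (36.5 to 43.7). When whole-series peaks within 200 bp were joined first, the number of regions of 1500 bp or more became 513 in place of 324.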

How the data were processed

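Peaks were taken from 3 deposited lists on WormBase WS220 per the file headers: 1 for each ChIP replicate, which the file contents ascribe to MACS, and 1 for the whole series, ascribed there to MACS v2. The submitters' processing notes name BWA and ce10. The sources used here do not give how the libraries were combined for the whole-series list. The peak score that the authors deposited is of an unstated kind, differs in scale between the lists, and ties at 3100 for 36 replicate 1 and 69 replicate 2 peaks, so scores were compared only within a list, and between lists only percentiles are set side by side. Sequencing depth is unknown; intervals for shares (exact binomial, 95%) and the limit for a count of 0 (3 counts) cover counting error over peaks only, and neighbouring peaks are not independent.

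Broad domains were whole-series peaks of 1500 bp or more on the 6 nuclear chromosomes. Overlap needed 1 bp; coverage is the share of a domain's bases in a replicate's peaks. Chromosomes were measured to the furthest peak end in the 3 lists (100.3 Mb together). Tests were exact two-sided sign-flip permutations over 6 chromosomes, adjusted by Benjamini-Hochberg over 5 tests, 3 of them added later. Chromosomes of the same libraries are not biological replicates, so these p-values measure spread between chromosomes. Regions were named by rule: the 15 widest, the 10 highest-scoring, the widest per chromosome, the 5 widest without replicate support (there were none), 3 on each side of the threshold, and the largest runs within 20 kb. For the runs this was taken as those of 3 or 4 domains. The members and lists were chosen with earlier results of these data known. The functions for coverage, for the centre and neighbour comparisons and for the sign-flip test were tested on simulated lists. Those for centre share by replicate class and for peaks within 500 bp were not. Python 3.11.15, numpy 2.4.6, pandas 2.3.3, scipy 1.17.1 and matplotlib 3.10.9 were used. The input libraries have no values here.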

Additional observations from a re-analysis of the deposited data

Results flagged for a closer look

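Outside the nuclear chromosomes, the whole-series list held 1 peak on the mitochondrial genome, covering bases 1 to 13312 at a score of 93.08. It was singled out as signal in data that no comparison used. Its width exceeds that of all 324 broad domains, and neither replicate list held a mitochondrial peak.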

How the results depend on the processing

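Across 9 results 49 alternatives were run, 16 of them chosen after seeing the data, and 35 left direction and call as they were or moved a value only within its margin. The number of domains, 324, was 703 at 1000 bp, 190 at 2000 bp and 513 with peaks within 200 bp joined, and 164 to 210 when 1 replicate was left out and the other list's own peaks were used. The share of domains in both replicates, 49.4%, was 20.4% when peaks had to cover 50% of the domain and 37.7% with the upper 50% of each replicate list by score. The share covered mainly by 1 replicate, 78.7%, was 64.5% with 25% of the bases required. The centre minus outer difference, -0.66 points, turned to 0.10 with joined peaks and to 0.73 to 1.03 with 1 replicate left out. The neighbour difference, 1.06 points, was 7.41 to 8.12 with 1 replicate left out, and turned to -0.077 without chromosome I. In the replicate 1 list the neighbour difference had an exact sign-flip permutation p of 0.031, the smallest possible, which was not adjusted. The same p did not hold after adjustment in the tests of centre share by replicate class and of peaks within 500 bp. The X share, 7.41%, was 9.05% to 12.8% with 1 replicate left out. For each of these, the cause was not tested. No paired analysis was possible because no values of the input libraries, whose replicate numbers match, were used here. Unknown depth, scores tied at 3100 and 2 ChIP libraries limit these results.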
